A study of Homo sapiens with 12 samples.

Results

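The mRNAs described here encode proteins of the mitochondrial ribosome. Their genes were taken by name, as every gene called MRPL or MRPS followed by a number and, at most, a letter A, B or C. This gave 75 of the 36963 genes in the deposited table, 47 with an MRPL name, given to proteins of the large subunit, and 28 with an MRPS name, given to proteins of the small subunit, with exceptions that are named below. The study treated U251-MG, a human astrocytoma cell line, with manganese, a metal that is toxic to the nervous system in excess, and sequenced RNA that came down with an antibody against YTHDF2 next to RNA of the whole lysate. There were 3 libraries in each of 4 groups. The manganese IP libraries came from cells in medium with 2% FBS and 100 µM manganese and hold RNA precipitated with anti-YTHDF2, and the control IP libraries hold RNA precipitated in the same way from cells in that medium without manganese. The manganese input and control input libraries hold RNA of 2.5% of the same kinds of lysate, taken before the antibody was added. All libraries are of 1 cell line, and the labels name no genetic alteration. The labels do not say whether the 3 libraries of a group came from separate cultures, so p-values measure the spread between these libraries, which may be technical.

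The mitochondrial ribosome translates the few mRNAs that the mitochondrial genome encodes, all of them for subunits of the respiratory chain and ATP synthase. Its RNAs are made inside mitochondria, whereas all of its proteins are encoded in the nucleus, translated on cytosolic ribosomes and imported, so their mRNAs are open to cytosolic readers such as YTHDF2. YTHDF2 binds mRNAs that carry N6-methyladenosine and recruits the CCR4-NOT deadenylase, which shortens their lifetime. Some mitoribosomal proteins descend from proteins of the bacterial ribosome, and others were added during the evolution of mitochondria.

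The question of the IP and input comparisons is how much of an mRNA is bound to YTHDF2 relative to its abundance, and whether manganese changes that. Enrichment below is the log2 ratio of IP over input. It is relative to the bulk of genes, since library scaling sets the typical gene near 0. The libraries held 16683984 to 28425552 gene counts, of which the 75 members took 0.113% to 0.256%, or 18886 to 61907 counts a library. A single gene, PCGF6, took 34.3% to 41.8% of all counts. Control IP library 3 stood apart, with 56.9% of fragments aligned against 83.7% to 87.1% in the other 11 libraries, and the main counts and medians that rest on it are also given without it. Per the labels, input RNA was selected for poly(A) before the library preparation and no such step is described for the IP RNA, so that a difference between IP and input cannot be told apart from this step. No precipitation with a control antibody was analysed here. The cell line carried the astrocyte markers GFAP (204 to 2064 CPM, counts scaled to the size of the library) and GJA1 (81.5 to 459 CPM), while AQP4 was at 0 in every library and ALDH1L1 had a median under 1 CPM. All 5 glioma line markers were present, with a summed level of 3308 to 8371 CPM. The summed levels were 0 to 0.220 CPM for 3 epithelial markers, 1.19 to 13.96 CPM for 4 neuronal markers, 2.19 to 43.8 CPM for 5 microglia and macrophage markers and 9.42 to 48.9 CPM for 3 oligodendrocyte markers.

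All but 3 of the 75 mRNAs were expressed well enough to be tested. Summed over the 75, the deposited TPM (a level per length of transcript) was 1081, 1096 and 1135 in the manganese IP libraries and 1264, 1341 and 795 in the control IP libraries. It was 1371, 1315 and 1301 in the manganese input libraries and 1846, 2064 and 2196 in the control input libraries. By this measure every IP library lay below every input library of its own treatment, and the manganese input libraries lay below the control input libraries, with no overlap in either comparison. The means were 1104 ± 27.8 in manganese IP, 1133 ± 295 in control IP, 1329 ± 36.8 in manganese input and 2035 ± 176 in control input (SD, n = 3 each), and that of control IP was 1302 over libraries 1 and 2 alone. Summed CPM, which are not per length, ordered the fractions differently: they were 1685, 1704 and 1834 in manganese IP, 1918, 1834 and 986 in control IP, 1681, 1672 and 1616 in manganese input and 1893, 1902 and 1935 in control input. By CPM every manganese IP library lay above every manganese input library, and control IP overlapped control input. Sums of TPM depend on everything else in a library, and how far the difference between inputs depends on scaling is described with that comparison.

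**Figure D1:**
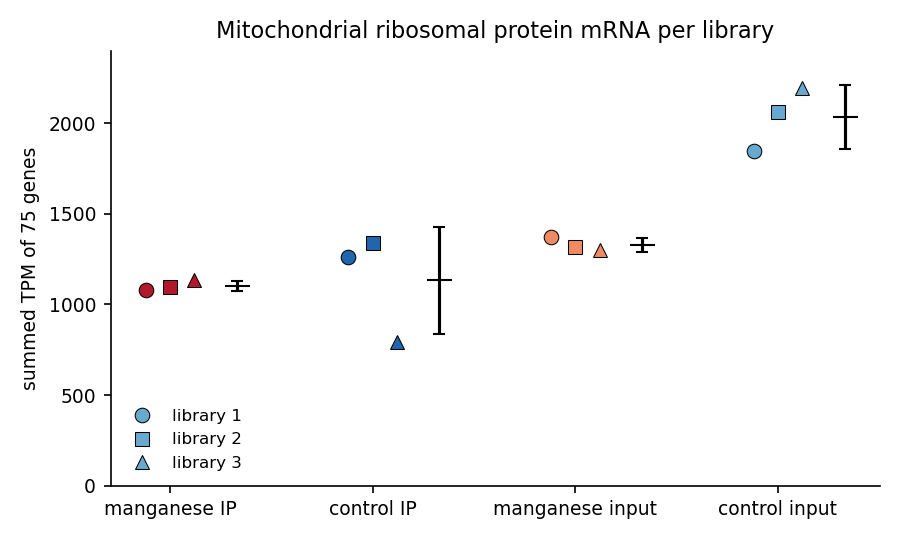
Summed TPM of the 75 mitochondrial ribosomal protein genes (y axis, linear from 0) in the 12 libraries by group, with the libraries of a group shown by circle (1), square (2) and triangle (3) and the group's mean ± SD beside them. Control IP library 3, at 795, is the lowest of the 12, and the 3 control input libraries, at 1846 to 2196, are the highest.

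MRPL33, a small large-subunit protein with a bacterial homologue, had the highest level per length: its mean was 99.8 TPM in manganese IP, 137 in control IP, 215 in manganese input and 388 in control input. It alone made up 9.04% of the summed TPM in manganese IP, 12.1% in control IP, 16.2% in manganese input and 19.1% in control input. The next were the small-subunit proteins MRPS6, MRPS16 and MRPS24 and the large-subunit protein MRPL51. MRPS6 had 78.7 TPM in manganese IP, 77.6 in control IP, 76.8 in manganese input and 94.2 in control input, levels closer to each other than those of MRPL33. Among the 72 tested members the median level was 8.36 TPM in manganese IP, 8.63 in control IP, 9.17 in manganese input and 15.7 in control input. The order of the levels was much alike in the 2 fractions of a treatment, with a Spearman rho across the 72 members of 0.85 between manganese IP and manganese input and 0.75 between control IP and control input; genes are not independent replicates, and each pair of values shares gene length. MRPL34, MRPL58 and MRPL40 were not tested. MRPL34 and MRPL58, the second of which can release stalled peptides from the mitoribosome, were at 0 in every library, and MRPL40 had 10 counts in all 12 libraries together. The table also names 62 pseudogenes of members, whose counts were under 1% of the sum of gene and pseudogenes for all but 2 of the 30 members with any; the exceptions were MRPS31 with 2.26% and MRPL40 with 65.5%, so the value of MRPL40 is uncertain.

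YTHDF2 precipitates of manganese-treated cells held these mRNAs at about the same ratio to input as the typical gene, while those of control cells held many of them at a lower one. Of the 72 members tested, 8 rose and 9 fell in manganese IP against manganese input in edgeR's quasi-likelihood fit (Benjamini-Hochberg over the 14804 tested genes, threshold 0.05), where 14.8% of all genes rose and 17.6% fell. In control IP against control input 6 members rose and 31 fell, where 17.2% of all genes rose and 14.2% fell. The members' median log2 fold change was -0.09 in manganese-treated cells, beside -0.03 for all tested genes, and -0.72 in control cells, beside 0.04 for all tested genes. With counts corrected for transcript length the median was 0.35 in manganese-treated cells, beside 0.19 for all genes in that setting, and -0.18 in control cells, beside 0.07. The change of enrichment with manganese, tested as the difference of the 2 ratios, passed for 12 members, all of them upward, where 6.94% of all genes rose and 10.2% fell; its median was 0.45 over members and -0.17 over all tested genes. By the 3 differences of IP minus input of the same number, 26 members had every manganese value above every control value and 3 had every one below, where 17.1% and 22.2% of all genes did. Same-numbered libraries did not deviate together, and whether they share a lysate is not settled here, so this match of IP to input may be arbitrary.

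These values rest on TMM scaling. With libraries scaled by total counts, 7 members rose and 13 fell with manganese (median -0.25, beside -0.18 for all genes) and 3 rose and 46 fell in control cells (median -1.06, beside -0.26), while the change of enrichment passed for 15 members, all upward (median 0.65, beside 0.003 for all genes). Over all genes that scaling gave 1745 higher and 3056 lower with manganese, beside 2187 and 2608 with TMM, 1679 and 3036 in control cells, beside 2543 and 2096, and 1261 and 1009 in the change of enrichment, beside 1028 and 1503.

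**Figure D2:**
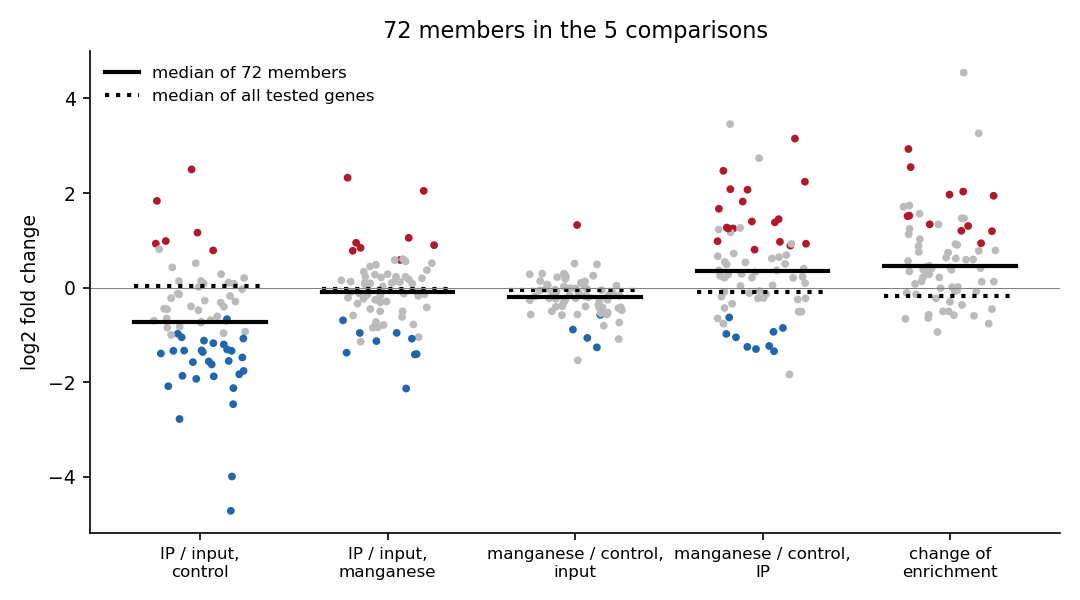
Log2 fold changes (y axis) of the 72 tested members in the 5 comparisons (x axis), each point a gene, red where higher and blue where lower at an adjusted p under 0.05 and grey otherwise; solid bars are the members' medians and dotted bars those of all 14804 tested genes. The members' median lies below that of all genes for control IP over control input (-0.72 beside 0.04) and above it for the change of enrichment (0.45 beside -0.17).

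Of the members that averaged 5 CPM or more across control IP and control input, the lowest ratios after that of MRPL4 belonged to genes of both names. MRPL54, a large-subunit protein without a bacterial counterpart, had 1.44, 2.68 and 2.56 CPM in the 3 control IP libraries, against 9.12, 18.2 and 18.3 CPM in the control input libraries. All control IP libraries lay below all control input libraries, and the log2 fold change was -2.78 ± 0.35 (SE; edgeR adjusted p = 6.78e-05). MRPS2, the homologue of bacterial ribosomal protein S2 in the small subunit, had 1.94, 2.85 and 1.67 CPM in control IP, against 7.83, 11.1 and 9.31 CPM in control input. MRPL41, a large-subunit protein particular to mitochondria, had 1.52, 3.07 and 2.35 CPM in control IP, against 7.41, 8.63 and 10.4 CPM in control input. Neither pair of groups overlapped, and the log2 fold changes were -2.12 ± 0.33 for MRPS2 (edgeR adjusted p = 2.68e-04) and -1.93 ± 0.38 for MRPL41 (edgeR adjusted p = 0.00154). MRPL18, whose bacterial homologue binds 5S rRNA, had 3.34, 2.896 and 0.887 CPM in control IP, against 6.61, 11.1 and 12.6 CPM in control input, and a log2 fold change of -2.08 ± 0.53 (edgeR adjusted p = 0.00855); its groups did not overlap either.

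The lowest estimates of all belonged to 2 mRNAs for which most control IP libraries held no read. MRPL4, a large-subunit protein with a bacterial homologue, had 0, 27 and 0 counts in the control IP libraries, against 133, 321 and 512 counts in the control input libraries. The small-subunit protein MRPS34 had 0, 20 and 0 counts in control IP, against 114, 71 and 230 counts in control input. Both passed the test (log2 fold changes -4.72 ± 1.49 and -3.99 ± 1.18; edgeR adjusted p = 0.0277 and 0.0198), but the size of such a change cannot be read closely where 2 of 3 libraries hold no count, and MRPL4 was also at 0 in manganese input library 3. MRPL49, the member nearest the median, had 33.5, 35.4 and 23.6 CPM in control IP, against 45.5, 52.9 and 55.3 CPM in control input, a log2 fold change of -0.73 ± 0.20 (edgeR adjusted p = 0.0117) with no overlap of the groups. The other 24 members that fell had log2 fold changes of -2.46 (MRPL23) to -0.66 (MRPS5).

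A few members went the other way. MRPL48, a large-subunit protein without a bacterial counterpart, was the most enriched in control cells, with 85.4, 75.7 and 40.3 CPM in control IP, against 9.25, 14.6 and 11.8 CPM in control input, a log2 fold change of 2.50 ± 0.28 (edgeR adjusted p = 2.48e-05). MRPL50, also mitochondria-specific, had 116, 116 and 49.4 CPM in control IP, against 27.6, 27.7 and 23.7 CPM in control input, a log2 fold change of 1.84 ± 0.27 (edgeR adjusted p = 1.81e-04). For both, every control IP library lay above every control input library, library 3 included, although it had the lowest value of the control IP libraries. The small-subunit proteins MRPS28 (1.16 ± 0.37) and MRPS25 (0.79 ± 0.27) and the mitochondria-specific large-subunit proteins MRPL39 (0.99 ± 0.27) and MRPL57 (0.93 ± 0.22) were the other 4 that rose, at edgeR adjusted p of 0.0271, 0.0418, 0.0138 and 0.00577; the groups overlapped for MRPS25 and not for the other 3. Leaving out control IP library 2, or control input library 2 or 3, ended the calls of MRPS28, MRPS25 and MRPL39 and left 3 members higher, against the 6 with all libraries. Over all members, 37 had every control IP library below every control input library and 5 had every one above, where 21.2% and 22.6% of all genes did.

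Control IP library 3 weighed on the size of the depletion but not on its direction. The median log2 CPM of the members was 2.80 in it, beside 3.82 and 3.69 in control IP libraries 1 and 2. Without it, 30 of the 31 members kept their call as lower, 11 members were higher and the median log2 fold change was -0.48. The shares were 41.7% lower and 15.3% higher, beside 17.95% and 19.4% of all genes, whose median was -0.0044. The manganese enrichment does not contain it but shares its estimate of spread, and gave 9 higher and 15 lower in that fit. Neither share, 12.5% and 20.8%, exceeded the 17.15% and 21.1% of all genes.

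In manganese-treated cells the members that passed were split between both directions. MRPS26, a mitochondria-specific protein of the small subunit, was the most enriched, with 52.2, 55.5 and 76.1 CPM in manganese IP, against 11.4, 12.6 and 12.6 CPM in manganese input. The groups were far apart, with a log2 fold change of 2.33 ± 0.34 (edgeR adjusted p = 1.97e-04), while in control cells the ratio was 0.81 ± 0.32 (edgeR adjusted p = 0.0738). Without control IP library 3 its ratio in control cells passed as well, at 1.155 ± 0.199 (edgeR adjusted p = 3.91e-04). MRPL48 had 56.00, 56.3 and 60.9 CPM in manganese IP, against 16.4, 13.99 and 11.5 CPM in manganese input, a log2 fold change of 2.05 ± 0.27 (edgeR adjusted p = 1.04e-04). MRPS18B (1.05 ± 0.25), MRPL16 (0.95 ± 0.23), the homologue of a bacterial large-subunit protein, and MRPL50 (0.90 ± 0.26) followed, at edgeR adjusted p of 0.00503, 0.00734 and 0.019. Each of these had all 3 manganese IP libraries above all 3 manganese input libraries. MRPL50 did not pass when TPM were tested instead of counts.

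On the low side, MRPL37, a mitochondria-specific large-subunit protein, had 16.9, 9.96 and 7.996 CPM in manganese IP, against 29.2, 32.1 and 30.9 CPM in manganese input, a log2 fold change of -1.40 ± 0.30 (edgeR adjusted p = 0.00272). MRPL19, whose bacterial homologue lies at the interface of the subunits, had 20.3, 19.9 and 13.1 CPM in manganese IP, against 35.5, 38.2 and 42.8 CPM in manganese input, a log2 fold change of -1.13 ± 0.23 (edgeR adjusted p = 0.00213). In both genes the groups did not overlap. MRPL21, a homologue of bacterial L21 (-1.41 ± 0.38), the mitochondria-specific MRPL42 (-1.08 ± 0.19) and MRPS36 (-1.37 ± 0.34) also fell, at edgeR adjusted p of 0.0123, 9.07e-04 and 0.0071, all with separate groups, and these 3 calls ended when counts were corrected for length. MRPS36 was named as a mitoribosomal protein and is known as a component of the α-ketoglutarate dehydrogenase complex. MRPL13, the homologue of bacterial L13, was nearest the median at -0.10 ± 0.30, with 15.98, 18.9 and 24.1 CPM in manganese IP, against 23.4, 21.4 and 18.3 CPM in manganese input, 2 groups that overlapped.

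The manganese and control enrichments come from separate libraries but from 1 fit with a shared estimate of spread, and both moved with length over all genes. How many of all genes passed in both was not counted, so the overlaps below are not a result about the members. MRPL48 and MRPL50 rose in both, 2 of the 8 that rose with manganese and of the 6 that rose in control cells. In the fit without control IP library 3, MRPL16, MRPL47, MRPS16 and MRPS26 also rose in both. MRPL19, MRPL21, MRPL33, MRPL37, MRPS18C, MRPS35 and MRPS36 fell in both, 7 of the 9 that fell with manganese and of the 31 that fell in control cells. No member passed in opposite directions. MRPS35, singled out after its values were seen, had the lowest ratio with manganese, -2.13 ± 0.37 (edgeR adjusted p = 6.81e-04), at 1.15, 1.72 and 1.17 CPM in manganese IP, against 5.78, 5.49 and 6.52 CPM in manganese input.

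**Figure D3:**
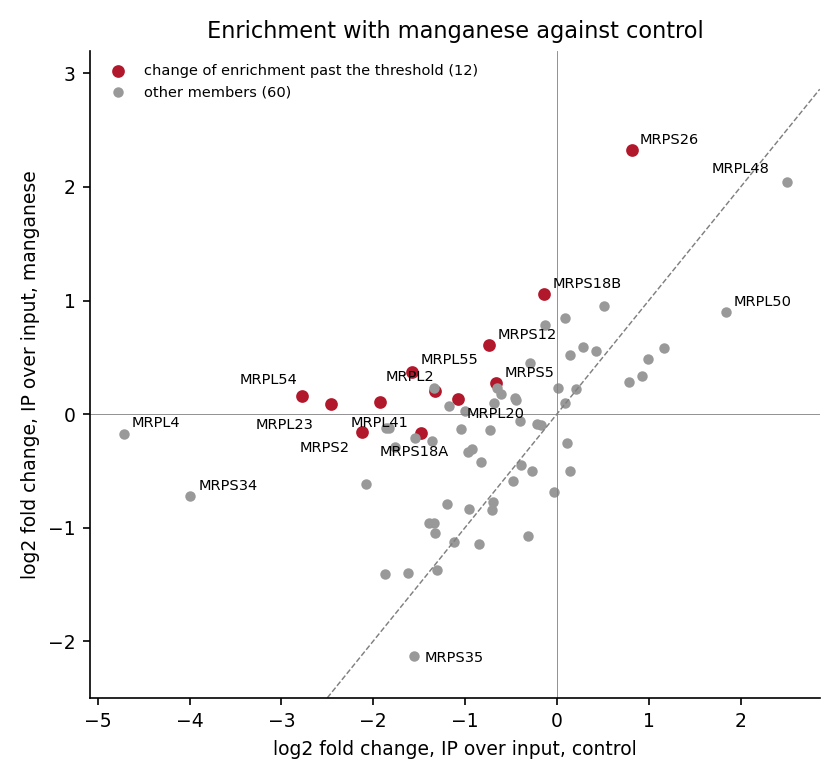
Log2 fold change of IP over input in manganese-treated cells (y axis) against that in control cells (x axis) for the 72 members, each point a gene, with the 12 whose change of enrichment passed in red and equality as a dashed line. The red points lie above the line; MRPL48 and MRPL50, at 2.50 and 1.84 on the x axis, lie under it at the right.

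The 12 members whose enrichment rose with manganese were MRPL2, MRPL20, MRPL23, MRPL41, MRPL54 and MRPL55 of the large-subunit names and MRPS2, MRPS5, MRPS12, MRPS18A, MRPS18B and MRPS26 of the small-subunit names. In 9 of the 12 the 3 control IP libraries had the lowest levels of all 12 libraries. Low control IP levels raise the very change by which the 12 were chosen. The share of all genes with this order was not counted, so it only describes the 12. MRPL54 had 14.2, 20.98 and 24.2 CPM in manganese IP, 1.44, 2.68 and 2.56 in control IP, 15.7, 18.01 and 19.6 in manganese input and 9.12, 18.2 and 18.3 in control input. The control IP libraries lay below the other 9, and the change of enrichment was 2.93 ± 0.47 on the log2 scale (edgeR adjusted p = 0.00202). MRPL23, whose bacterial homologue sits at the exit of the peptide tunnel, had 6.79, 5.41 and 9.35 CPM in manganese IP, 0.7603, 2.42 and 0.678 in control IP, 9.87, 5.85 and 4.59 in manganese input and 7.74, 6.28 and 7.41 in control input. Its change was 2.55 ± 0.70 (edgeR adjusted p = 0.0255), and again the control IP libraries lay below the other 9. MRPL2, the homologue of the rRNA-binding protein L2 near the peptidyl transferase centre, had 17.5, 18.7 and 26.6 CPM in manganese IP, 6.21, 7.82 and 3.71 in control IP, 15.6, 20.5 and 18.6 in manganese input and 14.9, 14.6 and 14.97 in control input. The change was 1.52 ± 0.39 (edgeR adjusted p = 0.0184), with the control IP libraries below the other 9.

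MRPL41, with 8.77, 11.3 and 9.35 CPM in manganese IP, 1.52, 3.07 and 2.35 in control IP, 9.17, 12.6 and 5.604 in manganese input and 7.41, 8.63 and 10.4 in control input, changed by 2.03 ± 0.52 (edgeR adjusted p = 0.0175). MRPL55, the mitochondrial member of the L31 family, had 10.3, 13.1 and 14.5 CPM in manganese IP, 2.37, 3.804 and 1.83 in control IP, 10.3, 11.8 and 7.25 in manganese input and 5.57, 8.51 and 9.78 in control input, and changed by 1.94 ± 0.50 (edgeR adjusted p = 0.0182). MRPL20, whose bacterial homologue is needed to assemble the large subunit, had 38.1, 34.5 and 41.9 CPM in manganese IP, 17.3, 19.7 and 10.4 in control IP, 34.6, 37.6 and 32.5 in manganese input and 35.2, 33.03 and 31.6 in control input, and changed by 1.20 ± 0.31 (edgeR adjusted p = 0.0175). In these 3 genes, too, the control IP libraries were the 3 lowest of the 12.

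In the small subunit, MRPS2 had 8.73, 7.38 and 11.2 CPM in manganese IP, 1.94, 2.85 and 1.67 in control IP, 10.9, 10.8 and 8.696 in manganese input and 7.83, 11.1 and 9.31 in control input, a change of 1.97 ± 0.44 (edgeR adjusted p = 0.0102). MRPS5, whose bacterial homologue guards decoding accuracy, had 27.3, 27.3 and 26.5 CPM in manganese IP, 16.9, 15.7 and 9.92 in control IP, 25.1, 21.4 and 20.6 in manganese input and 22.1, 22.6 and 22.8 in control input, the smallest change of the 12 at 0.94 ± 0.30 (edgeR adjusted p = 0.046). Both had their 3 lowest values in control IP. MRPS26 was low in both inputs: it had 52.2, 55.5 and 76.1 CPM in manganese IP, 26.99, 32.1 and 10.5 in control IP, 11.4, 12.6 and 12.6 in manganese input and 11.9, 11.99 and 15.8 in control input, a change of 1.51 ± 0.46 (edgeR adjusted p = 0.0375). Its manganese IP libraries were the 3 highest of the 12, and control IP library 3 lay below all inputs while libraries 1 and 2 lay above them. MRPS12, the homologue of the decoding-site protein S12, had 13.01, 14.2 and 19.02 CPM in manganese IP, 9.29, 14.1 and 8.45 in control IP, 13.1, 10.6 and 6.71 in manganese input and 18.9, 16.9 and 17.3 in control input. Its change of 1.34 ± 0.41 (edgeR adjusted p = 0.041) came with control input libraries above all those of control IP and manganese input, and the 2 IP groups overlapped.

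MRPS18 is the member family with several gene copies, all related to bacterial S18, of which MRPS18C takes that protein's place in the small subunit, MRPS18B sits elsewhere in it and MRPS18A sits in the large subunit. MRPS18A had 12.8, 9.01 and 14.1 CPM in manganese IP, 4.52, 6.23 and 4.33 in control IP, 12.97, 15.2 and 12.3 in manganese input and 15.8, 14.1 and 12.03 in control input, and its enrichment changed by 1.30 ± 0.37 (edgeR adjusted p = 0.0298). MRPS18B had 55.7, 48.00 and 70.2 CPM in manganese IP, 46.3, 43.7 and 23.5 in control IP, 30.9, 28.4 and 24.4 in manganese input and 40.6, 46.6 and 37.9 in control input, a change of 1.19 ± 0.34 (edgeR adjusted p = 0.0306). For the first copy the control IP libraries were the lowest of the 12, while for the second the 2 control fractions overlapped. MRPS18C had 10.4, 10.2 and 9.62 CPM in manganese IP, 13.3, 6.83 and 5.95 in control IP, 15.2, 21.1 and 22.3 in manganese input and 21.4, 21.6 and 25.4 in control input. It was below its input in both treatments, and its change of 0.44 ± 0.41 did not pass (edgeR adjusted p = 0.522); differences between the 3 copies were not tested.

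**Figure D4:**
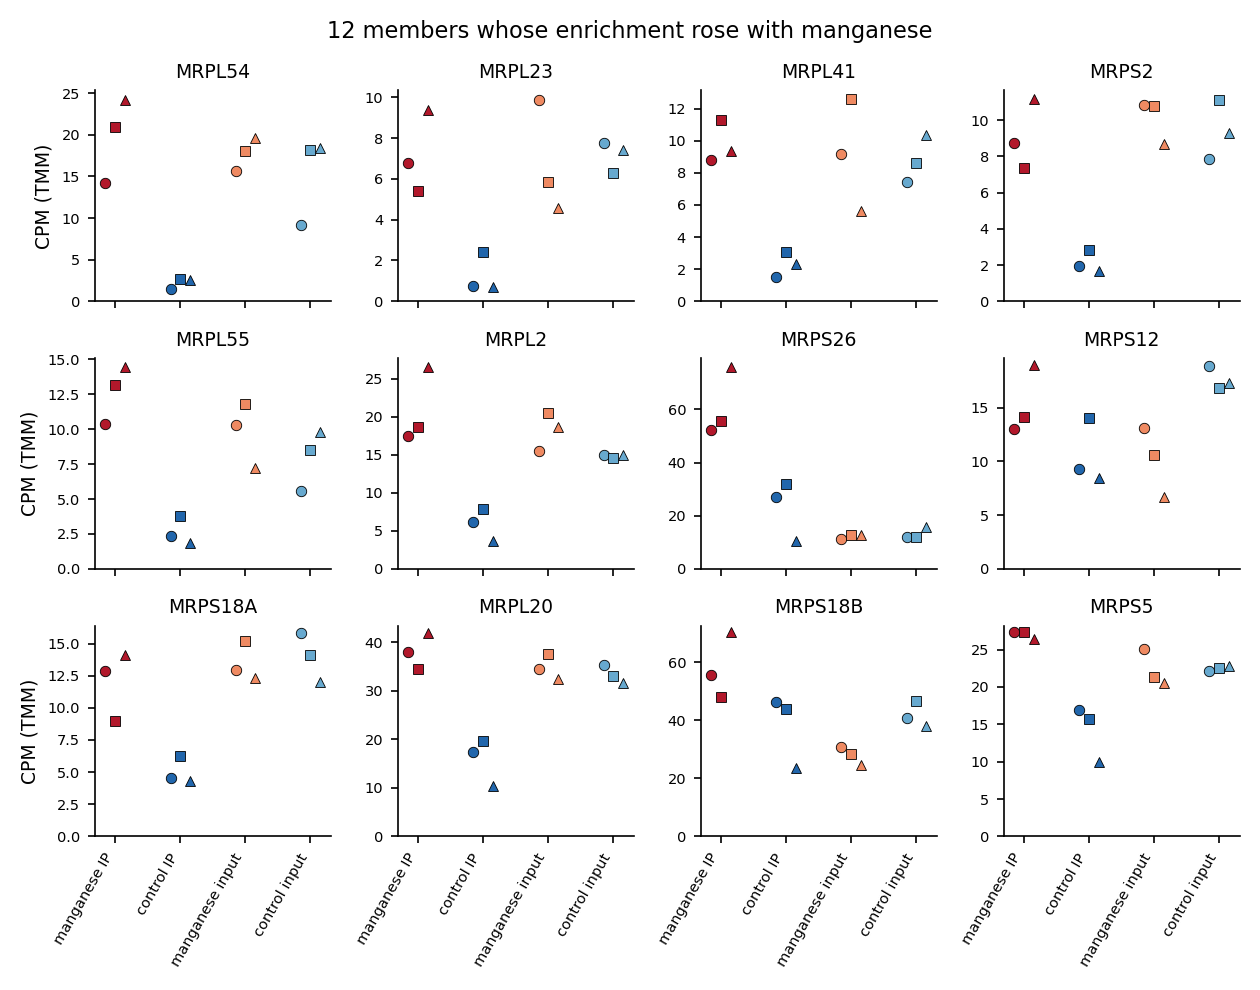
CPM (y axis of each panel, linear from 0) in the 12 libraries for the 12 members whose enrichment rose with manganese, in order of the change, by group (x axis) and library (circle 1, square 2, triangle 3). In 9 panels the blue control IP points are the 3 lowest, and MRPS26, MRPS12 and MRPS18B are the other 3. Low control IP levels raise the change by which these genes were chosen.

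The 12 calls were unequally firm. MRPL54, MRPL2 and MRPL20 passed under all 23 alternatives tried (MRPL54 at changes of 2.58 to 3.19), MRPL41 and MRPS2 failed under 2, MRPL55 under 3, MRPL23 and MRPS18B under 5, and MRPS26, MRPS5, MRPS18A and MRPS12 under 9 to 11. All 12 kept their call without control IP library 3, when the median over the members was 0.27, 12 members rose and 4 fell (MRPL42, MRPL50, MRPL57 and MRPS30). Those are 16.7% and 5.56% of the members, beside 9.60% and 14.6% of all genes, whose median was -0.14. Without single input libraries fewer passed: 4 of the 12 (MRPL2, MRPL20, MRPL54 and MRPS2) without manganese input library 3 and the same 4 without control input library 3. Without control input library 2 it was 6, and without control input library 1 it was 7. Of all genes, 684 of 15680, 682 of 15570, 675 of 15574 and 978 of 15644 were higher in these fits, in that order, beside 1028 of 14804. The loss of calls was thus not particular to the members.

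Short promoter windows are shown for those of the 12 genes that hold either of 2 motifs found in a larger share of member promoters than of all promoters. A window of 300 bases, from 250 before to 50 after the annotated start, was read from RefSeq (GRCh38.p14) for 66 of the 75 members and 10 of the 12. The letters CCGGAAG, a run of letters that ETS factors bind, were found on either strand in 28 of the 66 member windows (42.4%), beside 12.8% of 22199 windows of protein-coding genes and 10.3% of all 35116 windows. The letters AAGATGGCG, of the factor YY1, were found in 13 (19.7%), beside 2.41% and 1.75%. The full palindromic motif of NRF1, a factor that controls nuclear genes for mitochondria, was found in 1 (1.52%), a share like that of all windows (1.24%). Among the 10 windows of the 12 genes, 5 held the first and 2 the second, and among the 53 windows of other tested members 21 (39.6%) and 11 (20.8%) did, and the difference between these shares was not tested. The windows below give 30 bases around the first match of each motif in a gene's window, 5′ to 3′ on the gene's strand, with the match in capitals. Further matches were not looked for. CTTCCGG is CCGGAAG read on the other strand.
MRPL54, chr19:3762650-3762679, plus strand: gccactgacgtCTTCCGGaaacgtgcactt
MRPL20, chr1:1407319-1407348, minus strand: cgaccttcgccCCGGAAGtatcgcaggggc
MRPS26, chr20:3046004-3046033, plus strand: tccccgcgccgCTTCCGGggcacggtggcg
MRPS12, chr19:38930928-38930957, plus strand: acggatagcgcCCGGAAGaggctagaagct
MRPS18A, chr6:43687804-43687833, minus strand: ggcgctacgttCCGGAAGcggaaatggacg
MRPS18A, chr6:43687763-43687792, minus strand: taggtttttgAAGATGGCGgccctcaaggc
MRPS18B, chr6:30617853-30617882, plus strand: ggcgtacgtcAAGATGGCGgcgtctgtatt
The matches began at positions -21, -44, -37, -5 and -31 for the first motif and 9 and 23 for the second, in the order printed, counted from 0 at the start site. No printed match overlapped another. Median GC content was 69.7% in the 10 windows, 59.0% in the 53 windows of other tested members, 62.3% in windows of protein-coding genes and 58.7% in all windows. A match is only a run of letters, and binding was not measured.

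The precipitates were also compared directly. In manganese IP against control IP, 18 members rose and 9 fell, where 20.4% of all genes rose and 22.5% fell, and the median was 0.35 over members and -0.09 over all tested genes. MRPL54 (3.15 ± 0.36), MRPL55 (2.24 ± 0.37), MRPL41 (2.08 ± 0.38), MRPS2 (2.07 ± 0.33) and MRPL2 (1.82 ± 0.29) rose most among those with a mean of at least 5 CPM, at edgeR adjusted p of 1.57e-05, 2.82e-04, 6.24e-04, 2.06e-04 and 2.01e-04, and in each of them all 3 manganese IP libraries lay above all 3 control IP libraries. These values share the control IP libraries with the control enrichment and are not independent of it. The other 13 that rose had log2 fold changes of 0.80 (MRPL27) to 2.47 (MRPL23). Between the groups, 25 members had every manganese IP library above every control IP library and 9 had every one below, where 24.8% and 24.9% of all genes did.

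Among the members that fell in the precipitate, MRPL15, a homologue of bacterial L15, had 4.41, 4.598 and 3.21 CPM in manganese IP, against 13.98, 10.9 and 6.05 CPM in control IP, a log2 fold change of -1.34 ± 0.38 (edgeR adjusted p = 0.012). MRPL50 had 39.2, 37.7 and 37.8 CPM in manganese IP, against 116, 116 and 49.4 CPM in control IP, a log2 fold change of -1.30 ± 0.26 (edgeR adjusted p = 0.00141). Neither pair overlapped, though control IP library 3 was the nearest to the manganese IP libraries in both. MRPS27, a protein of the small subunit with RNA-binding repeats, had 17.5, 17.6 and 8.36 CPM in manganese IP, against 38.6, 33.7 and 31.2 CPM in control IP (-1.25 ± 0.25, edgeR adjusted p = 0.00128). MRPS30, which despite its name is part of the large subunit, had 30.1, 30.8 and 20.1 CPM in manganese IP, against 69.6, 61.8 and 59.03 CPM in control IP (-1.23 ± 0.18, edgeR adjusted p = 1.11e-04). The log2 fold change of MRPL42 was -0.98 ± 0.19 (edgeR adjusted p = 0.00115), and the 2 groups were separate for all 3. Without control IP library 3 all 18 members that rose passed again, 14 fell and the members' median was 0.07. In that fit 20.2% of all genes rose and 22.2% fell, with a median of -0.036. Scaled by total counts, 15 rose and 14 fell (median 0.08, beside -0.37 for all genes, of which 2428 rose and 4335 fell, against 3020 and 3330 with TMM).

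In the input, manganese changed few of these mRNAs, and how many depends on the scaling. Against control input, 4 members fell in manganese input and 1 rose, where 3.63% of all genes fell and 11.3% rose. MRPL15 had 9.02, 7.91 and 4.01 CPM in manganese input, against 21.1, 14.7 and 14.5 CPM in control input (-1.26 ± 0.38, edgeR adjusted p = 0.0384). MRPS33, a mitochondria-specific small-subunit protein, had 17.4, 17.7 and 15.4 CPM in manganese input, against 37.5, 33.4 and 34.6 CPM in control input (-1.06 ± 0.32, edgeR adjusted p = 0.0407). MRPS27 (-0.89 ± 0.25) and MRPS30 (-0.57 ± 0.18) were lower at edgeR adjusted p of 0.0277 and 0.0435. All 4 had separate groups. MRPL17, a homologue of bacterial L17, was the 1 that rose, with 30.2, 24.1 and 32.7 CPM in manganese input, against 6.53, 11.8 and 16.3 CPM in control input (1.32 ± 0.40, edgeR adjusted p = 0.0414). No call was left without manganese input library 2 or 3, or without control input library 1 or 2, and 1 was left without manganese input library 1, control input library 3 or control IP library 2. MRPL17 did not pass without any 1 of the manganese IP libraries. Without control IP library 3, which is not among the libraries compared but shares the estimate of spread, 2 rose and 11 fell. Those are 2.78% and 15.3% of the members, beside 13.8% and 6.83% of all genes in that fit. In bulk RNA, fewer cells with an mRNA and less of it per cell cannot be told apart.

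The estimates of the input comparison leaned low, with 53 of 72 below 0 and a median of -0.20, beside -0.04 for all tested genes. Libraries scaled by total counts gave 21 members lower and 0 higher with a median of -0.66, but that scaling also moved the median of all genes to -0.49, against which the members' shift is to be read, and gave 1121 genes higher and 2621 lower, beside 1678 and 537 with TMM. On log2(TPM + 1), 21 members were lower and 0 higher with a median of -0.59. The median of all genes was then -0.28, with 1076 genes higher and 2448 lower. MRPL15, MRPS27 and MRPS30, which fell in the input, and MRPL17, which rose in it, passed in the same direction in manganese IP against control IP, which shares no library with the inputs. Both comparisons come from 1 fit, and the share of all genes that passed alike in both was not counted. MRPS24, the homologue of bacterial S3, was nearest the median at -0.20 ± 0.35, with 41.8, 44.6 and 46.2 CPM in manganese input and 45.1, 52.9 and 54.1 CPM in control input.

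Mitochondrial ribosomal proteins are small and their mRNAs short, and enrichment moved with length over all genes. By the effective length that the deposited counts and TPM imply, the median member was 0.433 times as long as the median tested gene, 64 of 72 were shorter than it and 52 were among the shortest 3 of 10 equal length groups of genes. In manganese IP against manganese input, the median log2 fold change of all genes was -0.40 in the shortest group and 0.22 in the longest, and in control IP against control input it was -0.79 and 0.68. The 21 members of the shortest group had a median of -0.23 with manganese and -1.31 in control cells. The 16 members of the third group had 0.13 with manganese and -0.31 in control cells, beside -0.25 and -0.50 for all genes of that group. Across the 72 members, length and manganese enrichment had a Pearson r of 0.27 and a Spearman rho of 0.27, and length and control enrichment 0.32 and 0.42, as a description over genes that share libraries. With counts corrected for length in each library, 15 members rose and 4 fell in manganese IP against manganese input (20.8% and 5.56%, beside 17.1% and 13.2% of all genes in that setting). In control IP against control input 9 rose and 12 of the 31 still fell (12.5% and 16.7%, beside 13.6% and 10.3% of all genes), so that the share lower was much nearer that of all genes than without the correction. The change of enrichment then passed for 7 of the 12 (MRPL2, MRPL20, MRPL23, MRPL41, MRPL54, MRPL55 and MRPS2) and for no other member, with a median of 0.33 beside -0.0097 for all genes, of which 6.92% rose. Without control IP library 3 the control medians of the shortest and the third length groups were -1.04 and -0.17 for members, beside -0.82 and -0.60 for all genes.

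**Figure D5:**
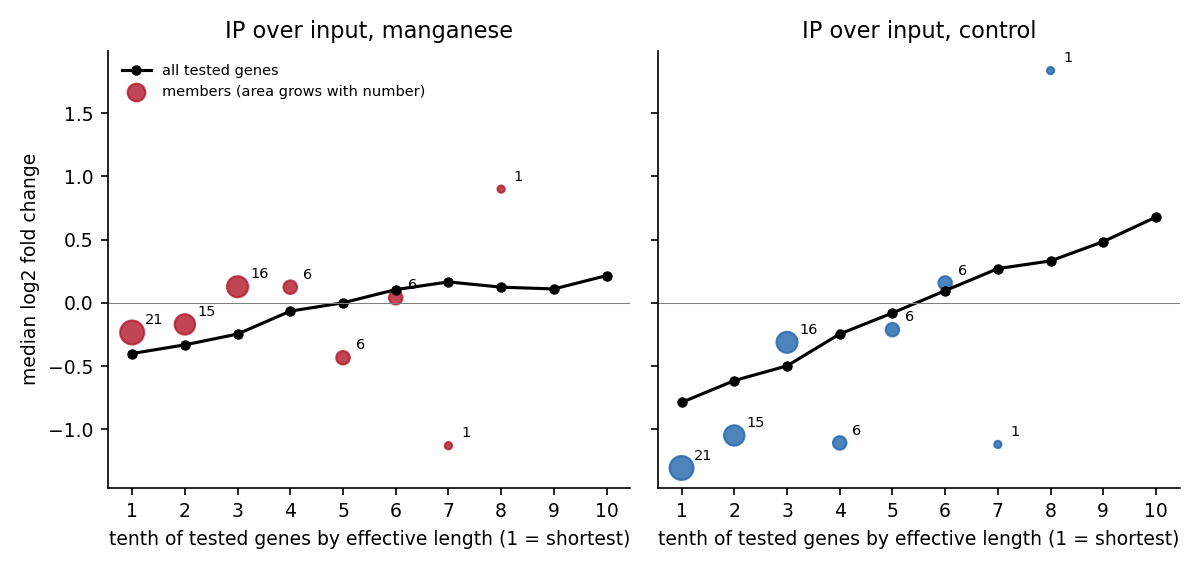
Median log2 fold change of IP over input (y axis) for all tested genes (black line) and for the members (coloured, area growing with their number, which is printed beside each point) in 10 equal groups of genes by effective length (x axis, 1 the shortest), with manganese at the left and control at the right. With manganese the members of the 2 shortest groups lie above the line, at -0.23 and -0.17; in control cells, where the line climbs to 0.68 at the longest group, they lie below it, at -1.31 and -1.05.

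Genes of both names were among the calls. In manganese IP against manganese input 5 of 44 MRPL genes and 4 of 28 MRPS genes fell, with medians of -0.03 and -0.14, and in control IP against control input 18 and 13 fell, with medians of -0.71 and -0.72; 17.6% and 14.2% of all genes fell in these comparisons, so that with manganese both shares were below that of all genes. The change of enrichment passed upward for 6 of each (13.6% and 21.4%), where 6.94% of all genes rose. Members were classed by hand, from general knowledge, as having a bacterial homologue or as particular to mitochondria. Of the 45 tested members with a bacterial homologue, 20 fell and 1 rose in control IP (44.4% and 2.22%). Of the 27 particular to mitochondria, 11 fell and 5 rose (40.7% and 18.5%). Among all genes 14.2% fell and 17.2% rose, so the rising share of the second kind was near that of all genes. In manganese IP against control IP, 13 of the first kind rose and 2 fell, beside 5 and 7 of the second, whose shares of 18.5% and 25.9% are near the 20.4% and 22.5% of all genes. Differences between these classes were not tested.

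Proteins of the mitoribosome that carry other names moved both ways. GADD45GIP1, of the large subunit, had 26.2, 38.1 and 43.9 CPM in manganese IP, 1.098, 2.03 and 1.41 in control IP, 34.03, 33.5 and 20.5 in manganese input and 12.7, 17.7 and 20.5 in control input. Its control IP libraries were far below all others, and its change of enrichment was 3.78 ± 0.44 (edgeR adjusted p = 0.00128), larger than that of any member called. AURKAIP1, of the small subunit, had 29.2, 44.2 and 50.1 CPM in manganese IP, 3.51, 4.88 and 5.85 in control IP, 28.95, 26.4 and 16.4 in manganese input and 17.5, 23.3 and 24.2 in control input, a change of 2.98 ± 0.41 (edgeR adjusted p = 0.00142). In both, the control IP libraries were the lowest of the 12. DAP3 (-0.16 ± 0.28), PTCD3 (-0.65 ± 0.25) and CHCHD1 (-0.0038 ± 0.64) did not pass for the change of enrichment (edgeR adjusted p = 0.757, 0.0909 and 1). By counts PTCD3 rose in both precipitates, with log2 fold changes of 0.71 ± 0.18 with manganese and 1.35 ± 0.18 in control cells (edgeR adjusted p = 0.00758 and 8.18e-05), but on log2(TPM + 1) the estimates were -1.05 and -0.10, so its direction is uncertain. Without control IP library 3 the changes were 3.73 ± 0.46 for GADD45GIP1 and 3.15 ± 0.40 for AURKAIP1, and that of PTCD3 passed at -0.80 ± 0.19 (edgeR adjusted p = 2.08e-04, 2.58e-04 and 0.00815).

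The factors that build and run the mitoribosome are given beside its proteins. Of 23 assembly factors tested 2 rose and 3 fell in manganese IP against manganese input, with a median of -0.01, where 14.8% and 17.6% of all genes did (8.70% and 13.0% of the factors), and 6 rose and 4 fell in control IP against control input, with a median of 0.43, where 17.2% and 14.2% of all genes did. Their change of enrichment passed upward for none (1 fell, and 3 had an unadjusted p under 0.05 in edgeR's test), with a median of -0.10. Of all genes 6.94% rose and 10.2% fell in that change, with a median of -0.17. Among 5 initiation and elongation factors, TUFM, the elongation factor that brings aminoacyl-tRNA, had 159.5, 151 and 214 CPM in manganese IP, 38.99, 47.1 and 33.04 in control IP, 123.2, 123.4 and 127 in manganese input and 75.5, 71.7 and 69.1 in control input, a change of 1.35 ± 0.24 (edgeR adjusted p = 0.00343). GFM1, the translocase of elongation, had 25.4, 21.9 and 19.4 CPM in manganese IP, 70.8, 54.9 and 45.1 in control IP, 37.5, 43.5 and 46.2 in manganese input and 53.3, 38.9 and 39.04 in control input, a change of -1.31 ± 0.29 (edgeR adjusted p = 0.00981). The control IP libraries were the lowest of the 12 for TUFM, and the manganese IP libraries lay below both manganese input and control IP for GFM1. Without control IP library 3 their changes were 1.23 ± 0.20 and -1.46 ± 0.25. The enrichment of GFM2, which recycles the ribosome after termination, also fell, with a change of -1.67 ± 0.28 (edgeR adjusted p = 0.00228), as did that of FASTKD2, an RNA-binding protein of mitochondria, with -1.31 ± 0.42 (edgeR adjusted p = 0.0476). Among 5 termination and recycling factors GFM2 was the 1 that passed, and of 11 genes of mitochondrial transcription and mRNA handling 1 rose and 3 fell. The latter are 9.09% and 27.3%, beside 6.94% and 10.2% of all genes, and lists this small allow no reading of such shares. C12orf65, of the release factor family, rose in manganese IP against manganese input (1.23 ± 0.19) and in control IP against control input (1.69 ± 0.19), and C1QBP, a protein of the mitochondrial matrix, fell in both (-1.51 ± 0.25 and -2.14 ± 0.25), all at edgeR adjusted p of at most 4.48e-04. MTG2, a GTPase of ribosome assembly, rose in both as well (1.28 ± 0.24 and 0.78 ± 0.24; edgeR adjusted p = 0.00114 and 0.022). The rRNA methyltransferase MRM2 rose in control IP against control input (0.97 ± 0.15, edgeR adjusted p = 2.64e-04). The assembly GTPase GTPBP10 fell in manganese IP against control IP (-1.11 ± 0.23, edgeR adjusted p = 0.00154), and so did the recycling factor MRRF (-0.95 ± 0.32, edgeR adjusted p = 0.0273).

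Other mRNAs for the translation and respiration machineries were low in both precipitates. Of 78 cytosolic ribosomal protein genes tested, 38 fell and 0 rose in manganese IP against manganese input (median -0.78; 47 had an unadjusted p under 0.05 in edgeR's test), where 17.6% of all genes fell, and 69 fell and 0 rose in control IP against control input (median -2.04; 71 had an unadjusted p under 0.05 in edgeR's test), where 14.2% of all genes fell. In the change of enrichment 31 rose (median 1.18), where 6.94% of all genes rose. Of 70 nuclear respiratory chain genes, 5 rose and 22 fell with manganese (median -0.58), 4 rose and 45 fell in control cells (median -1.38), and 14 rose and 1 fell in the change (median 0.75). Without control IP library 3, 70 cytosolic ribosomal protein genes fell in control IP (median -1.77) and 59 rose in the change (median 0.83), and of 71 respiratory chain genes 47 fell (median -1.16) and 18 rose in the change (median 0.44). With all libraries, the mitoribosomal medians of -0.72 in control cells and 0.45 in the change lay between these and the medians of all genes, 0.04 and -0.17. Of the 13 mRNAs that the mitoribosome itself translates 10 fell in manganese IP against manganese input (median -1.29) and 10 in control IP against control input (median -1.51), and their change of enrichment passed for none (median 0.24; none had an unadjusted p under 0.05 in edgeR's test).

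Counts and TPM gave opposite directions for MRPS16 in both treatments and for MRPS27 in control cells. MRPS16, a homologue of bacterial S16, had 119, 123.01 and 115 CPM in manganese IP, against 87.5, 76.9 and 72.9 CPM in manganese input, all higher, and rose by 0.59 ± 0.19 (edgeR adjusted p = 0.0289). Its TPM were 31.3, 31.4 and 26.2 in manganese IP, against 43.4, 40.2 and 39.1 in manganese input, all lower. The effective length behind the values was 1.70 times as long in manganese IP as in manganese input and 1.66 times as long in control IP as in control input. MRPS27 had ratios of 1.73 and 1.90, and with limma on log2(TPM + 1) its control IP over control input was -1.10 where the counts gave 0.11. With manganese both measures of MRPS27 were below 0, at -0.26 by counts (edgeR adjusted p = 0.485) and -1.11 on log2(TPM + 1). The direction of the enrichment is uncertain where they differ; which transcripts the reads came from was not tested.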

How the data were processed

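Estimated counts per gene and TPM were deposited by the authors; per the submitters' processing notes, kallisto and hg19 were used (no version is given in the sources used here), and the deposited counts are whole numbers. The fragments aligned, in counts and percent, were taken from the authors' deposited summary. The expected counts of 12 libraries were tested in 1 fit of 4 group means with edgeR 4.0.16 (R 4.3.3): filterByExpr (minimum count 10, minimum total 15), TMM factors, glmQLFit and glmQLFTest, Benjamini-Hochberg adjustment over the 14804 genes tested, threshold 0.05. CPM use the TMM factors. Checks on simulated counts were run first. Alternatives, with limma 3.58.1 and DESeq2 1.42.0 among the tools, are in the closing section. The main fit did not pair same-numbered libraries, which did not deviate together. No 2 libraries of a group agreed within sampling noise.

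Genes were named by rule: per comparison up to 5 members higher and 5 lower with the largest change, a mean of at least 5 CPM and separate groups, the member nearest the median, the 5 with the highest TPM, the MRPS18 copies, the untested members, and up to 4 genes with the smallest p per other list. All 12 members whose enrichment rose, MRPS25, MRPS34 and MRPS35 were added after their values were seen. The members and lists were chosen with earlier results of these data known. Effective length is the ratio of deposited counts to TPM. The rule for members was applied to the gene names paired with IDs in the table used here; MRPL12, MRPL45 and MRPS21 matched no row and were not analysed here.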

Additional observations from a re-analysis of the deposited data

Results flagged for a closer look

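For 12 members the effect of manganese differed between the precipitate and the input, by the test of the difference itself in edgeR's fit (adjusted p under 0.05). On the log2 scale the difference was 2.93 for MRPL54, 2.55 for MRPL23, 2.03 for MRPL41, 1.97 for MRPS2, 1.94 for MRPL55, 1.52 for MRPL2, 1.51 for MRPS26, 1.34 for MRPS12, 1.30 for MRPS18A, 1.20 for MRPL20, 1.195 for MRPS18B and 0.94 for MRPS5. Every one was positive, so that the manganese effect was more upward in the IP than in the input, where 6.94% of all genes rose and 10.2% fell.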

How the results depend on the processing

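Counts below are members higher and members lower, with some of the median log2 fold changes. For control IP over control input, total counts as scaling gave 3 higher, only the libraries compared gave 2 higher, correction for transcript length gave 12 lower, and leaving out control input 1, control IP 3 and manganese IP 3 together gave 11 higher. Over all genes, 1679 were higher with total counts, 1636 of 13578 with only the libraries compared and 3365 of 15198 without the 3 libraries, beside 2543. Length correction gave 1522 genes lower, beside 2096. For manganese IP over manganese input the median was -0.040 with RLE factors, -0.041 with DESeq2, -0.25 with total counts, -0.014 without PCGF6 in the library size, -0.24 and -0.26 with limma on log2(TPM + 1) and log2(TPM + 0.1) (15 lower in each), 0.036 with a filter of 1 CPM in 3 libraries, -0.12 without a low-count filter, -0.071 with only the libraries compared (14 lower), 0.35 with length correction (15 higher, 4 lower) and -0.15 without the 3 libraries together (16 lower). Over all genes, TPM gave 3077 and 3207 lower, only the libraries compared 3087 of 13212, and leaving out the 3 libraries 3341 of 15198, beside 2608. Length correction gave 2538 genes higher and 1958 lower, beside 2187 and 2608. For manganese input over control input, total counts gave 0 higher and 21 lower (median -0.66), TPM with a pseudocount of 1 gave 0 and 21 (-0.59), TPM with 0.1 gave 0 and 20 (-0.65), the library size without PCGF6 gave 0 higher, DESeq2 8 lower, the 1 CPM filter 0 and 7, only the libraries compared 2 and 13, and leaving out the 3 libraries 3 and 10. The main fit had 1678 of all genes higher and 537 lower. Total counts gave 1121 and 2621, TPM 1076 and 2448 or 967 and 2065, and the library size without PCGF6 1570 higher. DESeq2 gave 1129 lower and the 1 CPM filter 1590 and 871 of 12961. Only the libraries compared gave 2400 and 1866 of 13408, and leaving out the 3 libraries 2303 and 1202 of 15198. For manganese IP over control IP, 14 were lower with total counts (median 0.08), 16 and 17 with TPM (0.0078 and 0.010), 13 with length correction (0.14) and 17 without the 3 libraries (0.05), beside 9 and 0.35. Of all genes, 4335, 4050 and 4131, 3109 and 3582 (of 15198) were lower in these settings, in the same order, beside 3330. For the change of enrichment 19 were higher with DESeq2, 7 with length correction, and 6 were lower without the 3 libraries. Of all genes, 1574 were higher with DESeq2 and 1024 with length correction, beside 1028, and 2623 of 15198 were lower without the 3 libraries, beside 1503. The change of enrichment uses all 4 groups, so a fit of only the libraries compared was not run. The cause of these shifts was not tested.

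Leaving out each library in turn gave 3 to 11 higher and 23 to 34 lower (median -0.92 to -0.48) for control enrichment, 6 to 9 and 7 to 15 (-0.11 to 0.083) for manganese enrichment, 0 to 2 and 0 to 11 (-0.29 to -0.14) for manganese input over control input, 16 to 21 and 7 to 14 (0.07 to 0.51) for manganese IP over control IP, and 4 to 16 and 0 to 4 (0.27 to 0.72) for the change of enrichment. Over all genes the ranges were 1910 to 3025 and 1572 to 2796 for control enrichment, and 1689 to 2671 and 1923 to 3293 for manganese enrichment. They were 1213 to 2149 and 286 to 1064 for the inputs and 2686 to 3143 and 2859 to 3462 for the IPs. For the change of enrichment they were 675 to 1496 and 771 to 2269.

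Directions turned for MRPS16 (control enrichment -0.83 and -0.85, manganese enrichment -0.46 and -0.47), MRPS27 (control enrichment -1.10 and -1.18) and PTCD3 (control enrichment -0.10 and -0.11, manganese enrichment -1.05 and -1.14) with limma on log2(TPM + 1) and log2(TPM + 0.1). For control enrichment, 17 of 27 calls of named genes were lost under some alternative, and for manganese enrichment 7 of 16. For the change of enrichment it was 9 of 12, for manganese over control in the IP 2 of 19 and in the input 5 of 5. Most of these genes were picked for large changes. Members outside them, such as MRPL28, MRPL35 and MRPL38, also lost calls in the IP comparison.

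Same-numbered libraries did not deviate together (correlations of -0.12 to 0.07). With 3 libraries a group this cannot settle whether they share a lysate. The replicate block, a fit that matches libraries by number, gave a median of -0.073 for manganese enrichment and 0 higher for manganese input over control input. In the change of enrichment it kept 8 of the 12 risers and lost MRPS12, MRPS18A, MRPS26 and MRPS5, with 936 of all genes higher and 1221 lower. Depth limits the members with few reads, such as MRPL4 and MRPS34, whose counts include 0.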
